A study of Homo sapiens with 6 samples.

Results

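The genes described here encode the machinery of homologous recombination, the Fanconi anaemia pathway and the S-phase checkpoint, measured by RNA sequencing in lenvatinib-resistant TPC-1 cells. They were taken by name from the deposited count table, in which all 41 listed genes were found among 22681. TPC-1 is a human papillary thyroid carcinoma line, and its resistant derivative TPC-1-Len was grown under 10 µM lenvatinib, an inhibitor of RET and of several growth factor receptor kinases. Cells were transfected by lipid reagent with a short hairpin RNA against KRT15, a type I keratin (shKRT15, n = 3), or with a non-targeting hairpin (shNC, n = 3). Both groups received a hairpin and both were under the drug. The labels name 1 line and a single KRT15 hairpin, and no sensitive or drug-free culture is part of the comparison.

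Homologous recombination repairs a double-strand break by copying an intact sister chromatid. The break is first cut back by nucleases (the MRN complex with CtIP, then EXO1), BRCA1, BRCA2 and PALB2 then prepare the single strand for the search for its partner, and joint molecules are later taken apart by the BLM complex or by MUS81-EME1. The Fanconi core complex ubiquitinates the FANCD2-FANCI pair at DNA crosslinks, and the kinases ATM and ATR, acting through CHEK2 and CHEK1, hold the cell cycle while repair goes on. Many of these genes are known to be transcribed most in S and G2 phase, under control of E2F factors, whereas the kinase genes ATM and ATR are known to be expressed through the cycle.

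Short stretches of promoter are shown around letters bound by E2F factors, and the part of these letters in the members' changes was not tested. RefSeq promoter windows (GRCh38.p14, 250 bases before to 50 after an annotated start) were found for 37 of the 41 members. The searched letters were TTTCCCGC, TTTCGCGC, TTTGCCGC and TTTGGCGC, on both strands, and overlapping matches were allowed. Of these members, 8 held a match in at least 1 window, as did 8 of their 51 windows (15.7%) and 3.32% of all 35097 windows in the table. Each stretch below has 30 bases, 5′ to 3′ along the gene's strand, with the match in capitals.
FANCD2, chr3:10026424-10026453, plus strand: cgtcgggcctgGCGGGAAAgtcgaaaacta
EXO1, chr1:241848197-241848226, plus strand: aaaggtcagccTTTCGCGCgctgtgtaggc
CLSPN, chr1:35769965-35769994, minus strand: actctggctggGCGGGAAAgcaagaacagc
XRCC2, chr7:152676102-152676131, minus strand: tggcgttggtgGCGGGAAAgttgagtctct
FANCA, chr16:89816801-89816830, minus strand: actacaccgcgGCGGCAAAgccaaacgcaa
FANCC, chr9:95317863-95317892, minus strand: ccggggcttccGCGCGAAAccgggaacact
FANCC, chr9:95317737-95317766, minus strand: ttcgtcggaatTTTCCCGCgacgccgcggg
RMI1, chr9:83980762-83980791, plus strand: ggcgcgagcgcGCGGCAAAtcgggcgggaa
TIPIN, chr15:66356733-66356762, minus strand: ccccgcacggaTTTGGCGCCAAAcgctgcg

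The FANCD2 match began 2 bases before the annotated start and that of CLSPN 5 bases before it, while those of EXO1 and XRCC2 lay just past the start. TIPIN held 2 overlapping matches that form a palindrome, the first beginning 66 bases before 1 of its 2 annotated starts. By gene, 7 of the 21 members called higher with a window (33.3%) and 1 of the other 16 (6.25%) held these letters. Among 11301 tested genes with a window, 6.58% did. FANCI, RMI2, RAD54B and NBN had no window, so neither member called lower is among these genes. The other 16 are members that were not called and ATRIP, which was not tested. The letters CCAAT, bound by NF-Y, occurred in 54.1% of members and 42.9% of tested genes. They were in 57.1% of the members called higher and 50% of the others. The letters TTTGAA, bound in cell-cycle genes by the DREAM and B-MYB complexes, occurred in 10.8% of members and 13.8% of tested genes. They were in 3 of the 21 members called higher (14.3%) and 1 of the other 16 (6.25%). These are matches of letters in fixed windows, and no binding was measured.

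The libraries held 39868231 to 41343780 counted reads in shKRT15 and 36286059 to 36808695 in shNC. KRT15 itself was at 25.0, 24.3 and 24.9 CPM in shKRT15 and at 28.7, 31.9 and 36.2 CPM in shNC, a fall by 23.4% (log2 fold change −0.38 ± 0.10 SE, adjusted p = 0.00465, and −0.60 after adjustment for GC content and transcript length). CPM are counts per 1000000 reads of a library whose size is scaled with TMM factors. The adjustment, called GC-length adjustment below, takes from each library the trend of counts along GC content and length. Of 7 thyroid markers, PAX8 (410.4 CPM in shKRT15 and 375.3 CPM in shNC) and FOXE1 were well expressed, TG was low, and NKX2-1 and TSHR were near 0. Of 5 general epithelial markers, KRT18 averaged 214.6 CPM in shKRT15 and 115.9 CPM in shNC and rose (0.89 ± 0.07, adjusted p = 1.37e-08). KRT7 (22.9 CPM in shKRT15, 23.4 CPM in shNC) and KRT8 (14.9 CPM in shKRT15, 12.9 CPM in shNC) were not called, and EPCAM and CDH1 averaged below 0.05 CPM in both groups. The summed level of 5 leukocyte markers was 0.116 to 0.318 CPM in shKRT15 and 1.07 to 1.496 CPM in shNC, with PTPRC at 0 in shKRT15. Of these LYZ alone had enough reads to be tested, and it fell (−3.40 ± 0.82, adjusted p = 0.00266). It had 1, 0 and 5 reads in shKRT15 and 15, 24 and 19 in shNC. The summed level of 5 fibroblast markers was 7.67 to 8.45 CPM in shKRT15 and 17.6 to 23.1 CPM in shNC. Of the fibroblast markers, LUM (−2.77) and COL1A1 (−1.52) fell and PDGFRB rose (1.05, adjusted p = 0.00337). The summed level of 3 measured endothelial markers was 0.955 to 1.66 CPM in shKRT15 and 0.646 to 1.04 CPM in shNC. Of these PECAM1 alone was tested, and it was not called (0.62 ± 0.41, adjusted p = 0.230). The part of these markers in the results below was not tested.

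Most of the genes that differed were higher in shKRT15. Of the 41 members, 40 had enough reads to be tested, and 23 rose, 2 fell (4 without shNC replicate 3) and 15 did not pass an adjusted p of 0.05. Among all 14356 genes tested, 45.0% were called, 22.1% higher and 23.0% lower, so 57.5% of tested members called higher stands beside 22.1%. The median log2 fold change of the 40 members was 0.62, against 0.00 for all genes tested. The groups did not overlap in 24 members that were higher (26.9% of all genes) and 2 that were lower (27.1%), where 54.0% of all genes were free of overlap in either direction. At a log2 fold change over 1, 8 members were called higher, beside 3.96% of all genes. Together the members were at 1223 ± 79.99 CPM in shKRT15 and 1041 ± 37.1 CPM in shNC (SD, n = 3 each).

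**Figure D1:**
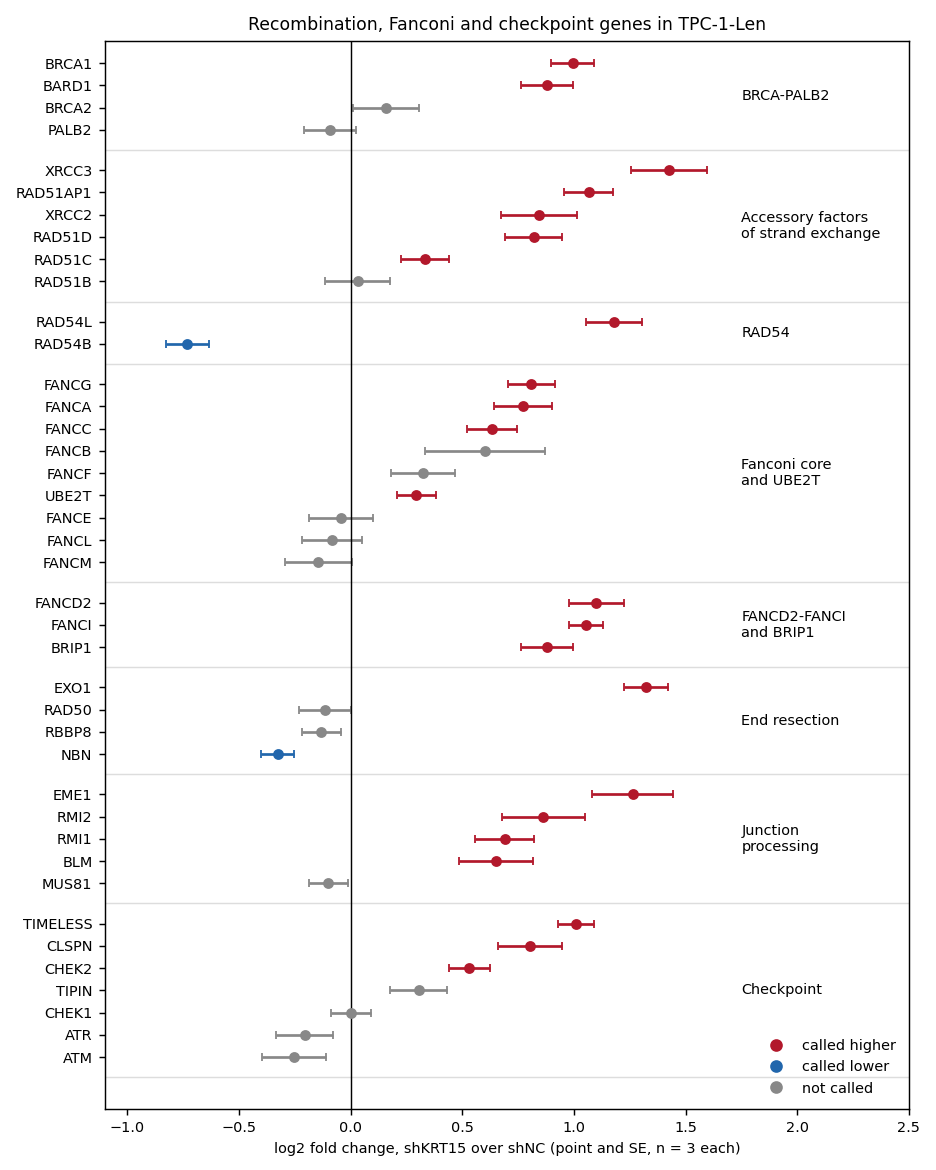
Log2 fold change of the 40 tested members, shKRT15 over shNC, by role, with the standard error as a bar (n = 3 each). Of these, 23 were called higher and lie right of 0, RAD54B (−0.73) and NBN (−0.33) were called lower, and 15 grey points did not pass the test.

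Of the genes that prepare the break for strand exchange, BRCA1 and BARD1 rose and BRCA2 and PALB2 were not called. BRCA1, the ubiquitin ligase that promotes resection and PALB2 recruitment (chromosome 17, 43044295 to 43170327, minus strand), was at 38.1, 41.6 and 36.3 CPM in shKRT15 and at 20.6, 18.97 and 18.7 CPM in shNC. Every shKRT15 library was above every shNC library, at a log2 fold change of 0.99 ± 0.10 (SE, adjusted p = 2.23e-07). Its obligate partner BARD1 was at 21.3, 19.6 and 20.1 CPM in shKRT15 and 12.6, 10.7 and 9.79 CPM in shNC (0.88 ± 0.12, adjusted p = 1.08e-05). BRCA2, the central mediator of strand exchange, was at 26.5, 28.5 and 20.5 CPM in shKRT15 and 25.5, 25.0 and 17.1 CPM in shNC. Its groups overlapped (0.16 ± 0.15, adjusted p = 0.419), and replicate 3 was the lowest library of each group. PALB2, the bridge between BRCA1 and BRCA2, was at 16.7 to 22.7 CPM in shKRT15 and 20.1 to 21.2 CPM in shNC (−0.09 ± 0.12, adjusted p = 0.556).

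Among RAD51B, RAD51C, RAD51D, XRCC2 and XRCC3, which act as accessory factors of strand exchange, 4 of 5 rose, and so did RAD51AP1, which stimulates joint molecule formation. XRCC3 had the highest fold change of all members, with 11.99, 10.4 and 13.5 CPM in shKRT15 and 4.998, 3.31 and 5.05 CPM in shNC (1.42 ± 0.17, adjusted p = 3.24e-06). RAD51AP1 was at 34.7, 41.3 and 31.5 CPM in shKRT15 and 17.8, 17.7 and 15.9 CPM in shNC, a 2.09-fold rise (1.07 ± 0.11). Both genes were free of overlap between the groups. RAD51D, with a mean of 15.3 CPM in shKRT15 and 8.67 CPM in shNC, rose by 0.82 ± 0.13 on the log2 scale. XRCC2, with 6.91 CPM in shKRT15 and 3.85 CPM in shNC, rose by 0.84 ± 0.17. RAD51C rose least of the 4, at 21.9 ± 1.25 CPM in shKRT15 and 17.4 ± 1.70 CPM in shNC (SD, n = 3; log2 fold change 0.33, adjusted p = 0.0180). Its call was lost without shKRT15 replicate 1 (adjusted p = 0.0608), shKRT15 replicate 2 (0.0574) or shNC replicate 2 (0.118). RAD51B was at 7.08 to 7.72 CPM in shKRT15 and 6.38 to 8 CPM in shNC (0.03 ± 0.15, adjusted p = 0.886). XRCC3 shares part of its span with KLC1, which was at 127 CPM in shKRT15 and 141 CPM in shNC and was not called (−0.15).

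The 2 RAD54 genes moved in opposite directions. Both encode DNA translocases that act in strand exchange. RAD54L (chromosome 1, 46247688 to 46278473, plus strand) was at 16.6, 16.3 and 16.6 CPM in shKRT15 and at 6.41, 7.97 and 7.45 CPM in shNC (1.18 ± 0.12, adjusted p = 6.46e-07). RAD54B was at 32.9, 36.4 and 28.5 CPM in shKRT15 and at 52.7, 52.3 and 57.3 CPM in shNC (−0.73 ± 0.10, adjusted p = 9.75e-06). Neither gene had overlapping groups. In reads, RAD54L stood at 0.506, 0.447 and 0.582 of RAD54B in the shKRT15 libraries and at 0.122, 0.152 and 0.130 in the shNC libraries. The log2 ratio differed by 1.92 ± 0.15 (SE), with p = 0.1 in a two-sided exact permutation test, the smallest that 3 libraries against 3 allow. After GC-length adjustment RAD54B was at −0.45 (adjusted p = 3.12e-05).

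**Figure D2:**
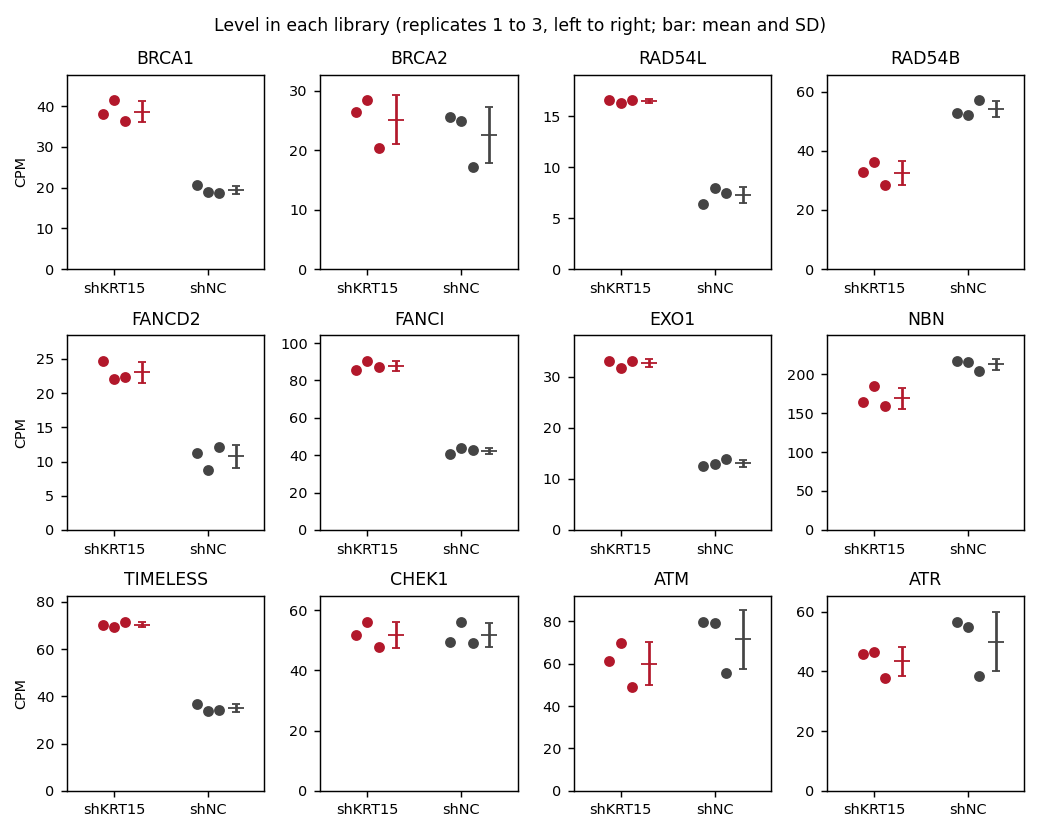
CPM of 12 members in each library, replicates 1 to 3 from left to right, shKRT15 in red and shNC in grey, with the mean and SD beside the points; each vertical axis starts at 0. BRCA1, RAD54L, FANCD2, FANCI, EXO1 and TIMELESS are higher in every shKRT15 library, RAD54B and NBN are lower, and BRCA2, CHEK1, ATM and ATR overlap.

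In the Fanconi pathway the substrate pair and the helicase rose, while the core complex was divided. FANCI (chromosome 15, 89243979 to 89317259) was at 85.5, 90.5 and 87.2 CPM in shKRT15 and at 40.4, 43.7 and 42.8 CPM in shNC (1.05 ± 0.08, adjusted p = 8.49e-09). FANCD2 was at 24.7, 22.1 and 22.3 CPM in shKRT15 and 11.3, 8.79 and 12.2 CPM in shNC (1.10 ± 0.13, adjusted p = 1.68e-06). The FANCD2 to FANCI read ratio was 0.244 to 0.289 in shKRT15 and 0.201 to 0.285 in shNC, and the groups overlapped in it. BRIP1, the BRCA1-associated helicase FANCJ, was at 23.6 ± 2.46 CPM in shKRT15 and 12.9 ± 1.34 CPM in shNC (SD, n = 3; log2 fold change 0.88, adjusted p = 1.03e-05).

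Of the 9 core complex and ubiquitin-conjugation genes, 4 rose, none fell and 5 did not pass. The 44.4% called, all higher, stand beside 45.0% of all genes tested called and 22.1% called higher. FANCG, a scaffold of the core, was at 27.2, 26.5 and 27.0 CPM in shKRT15 and 17.01, 15.4 and 13.5 CPM in shNC (0.81 ± 0.11, adjusted p = 8.90e-06). Its core partner FANCA rose by 0.77 ± 0.13 and FANCC by 0.63 ± 0.11 on the log2 scale, with means of 14.7 and 20.4 CPM in shKRT15 and 8.59 and 13.2 CPM in shNC. UBE2T, the conjugating enzyme that works with the ligase FANCL, was at 44.3, 48.6 and 43.0 CPM in shKRT15 and 35.8, 35.4 and 39.6 CPM in shNC (0.29 ± 0.09, adjusted p = 0.0123). UBE2T lost its call when shNC replicate 2 was left out (adjusted p = 0.0712), and stood at 0.49 after GC-length adjustment. FANCL (−0.08 ± 0.13), FANCE (−0.04 ± 0.14) and the translocase FANCM (−0.14 ± 0.15) had overlapping groups and were not called.

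FANCB and FANCF, both subunits of the core, were close to the threshold. FANCB was at 3.66, 3.77 and 3.96 CPM in shKRT15 and at 3.81, 2.08 and 1.61 CPM in shNC (0.60 ± 0.27, adjusted p = 0.0796). Only shNC replicate 1 reached the shKRT15 libraries, and without it FANCB was called higher (1.05, adjusted p = 0.00276). FANCF was at 11.8, 11.0 and 10.8 CPM in shKRT15 and 10.9, 7.66 and 8.30 CPM in shNC (0.32 ± 0.14, adjusted p = 0.0749), and was likewise called without shNC replicate 1 (0.49, adjusted p = 0.0120).

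Of the end resection genes, the long-range nuclease rose and the factors that start resection did not. EXO1 (chromosome 1, 241847986 to 241889939) was at 33.0, 31.7 and 33.1 CPM in shKRT15 and at 12.5, 12.9 and 13.8 CPM in shNC. This was a 2.498-fold rise (1.32 ± 0.10, adjusted p = 9.23e-09), and the groups were far apart relative to their spread. NBN, the MRN subunit that recruits ATM, was at 164, 185 and 159 CPM in shKRT15 and at 217, 216 and 205 CPM in shNC. It fell by 20.3% (−0.33 ± 0.07, adjusted p = 0.00148) with no overlap, but after GC-length adjustment it stood at −0.09 (adjusted p = 0.116). RAD50, the ATPase of the same complex, was at 60.6, 84.9 and 59.3 CPM in shKRT15 and 79.8, 72.9 and 69.4 CPM in shNC (−0.12 ± 0.12, adjusted p = 0.447). Without shKRT15 replicate 2, its highest library, it was called lower (−0.30, adjusted p = 0.0129). RBBP8, which encodes CtIP, was at 45.2 to 53.7 CPM in shKRT15 and 51.3 to 55.0 CPM in shNC (−0.13 ± 0.09, adjusted p = 0.241).

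Genes that process joint molecules rose, except MUS81. BLM, the helicase of the dissolution complex, was at 8.99, 14.0 and 9.30 CPM in shKRT15 and at 6.71, 6.91 and 6.97 CPM in shNC (0.65 ± 0.17, adjusted p = 0.00400), and at 0.42 without shKRT15 replicate 2 (adjusted p = 0.0341). Its partners RMI1 (0.69 ± 0.13) and RMI2 (0.86 ± 0.18) rose too, with means of 18.0 and 6.27 CPM in shKRT15 and 11.2 and 3.45 CPM in shNC. EME1, the non-catalytic partner of the MUS81 nuclease, was at 8.08, 10.3 and 6.80 CPM in shKRT15 and at 3.73, 3.09 and 3.70 CPM in shNC (1.26 ± 0.18, adjusted p = 2.56e-05). MUS81 was at 35.6, 34.6 and 35.9 CPM in shKRT15 and at 35.3, 38.3 and 40.2 CPM in shNC (−0.10 ± 0.09, adjusted p = 0.372). After GC-length adjustment it fell (−0.23, adjusted p = 0.0100). The EME1 to MUS81 log2 ratio was higher in shKRT15 by 1.35 ± 0.22 (SE, exact permutation p = 0.1, the smallest possible).

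Of the 7 checkpoint genes tested, TIMELESS, CLSPN and CHEK2 rose, while TIPIN, CHEK1, ATM and ATR were not called. The 42.9% called, all higher, stand beside 45.0% of all genes tested called and 22.1% called higher. TIMELESS, the fork protection subunit that links the replisome to ATR signalling (chromosome 12, 56416363 to 56449426), was at 70.1, 69.4 and 71.6 CPM in shKRT15 and at 36.8, 33.9 and 34.1 CPM in shNC (1.01 ± 0.08, adjusted p = 2.25e-08). CLSPN, the adaptor through which ATR activates CHEK1, was at 16.7, 13.8 and 11.6 CPM in shKRT15 and 8.28, 8.45 and 7.39 CPM in shNC (0.80 ± 0.14, adjusted p = 0.000202). CHEK2, the effector kinase of ATM, was at 43.1, 43.8 and 41.2 CPM in shKRT15 and at 27.7, 28.6 and 32.2 CPM in shNC (0.53 ± 0.09, adjusted p = 0.000133). The groups of these 3 genes did not overlap.

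TIPIN, the partner of TIMELESS, was at 9.94, 11.3 and 10.3 CPM in shKRT15 and at 7.87, 8.93 and 8.72 CPM in shNC. All its shKRT15 libraries were higher, but it missed the threshold (0.30 ± 0.13, adjusted p = 0.0644), which it passed after GC-length adjustment (0.55, adjusted p = 0.000880). CHEK1, the effector kinase of ATR, had the fold change closest to 0 of all members: 51.7, 55.9 and 47.6 CPM in shKRT15 and 49.6, 56.2 and 49.2 CPM in shNC (0.00 ± 0.09, adjusted p = 0.984). The CHEK2 to CHEK1 read ratio was 0.832, 0.783 and 0.865 in shKRT15 and 0.559, 0.510 and 0.655 in shNC, without overlap (exact permutation p = 0.1).

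ATM was at 61.3, 69.7 and 49.3 CPM in shKRT15 and at 79.9, 79.4 and 55.6 CPM in shNC (−0.25 ± 0.14, adjusted p = 0.168). ATR was at 45.7, 46.5 and 37.7 CPM in shKRT15 and at 56.7, 54.7 and 38.5 CPM in shNC (−0.21 ± 0.13, adjusted p = 0.210). As with BRCA2, replicate 3 was the lowest library of each group for both kinases. Without shNC replicate 3 both were called lower, ATM at −0.41 (adjusted p = 0.00443) and ATR at −0.36 (adjusted p = 0.00225). After GC-length adjustment, ATM stood at −0.02 ± 0.08 and ATR at −0.05 ± 0.08, while BRCA2 was called higher (0.47 ± 0.10, adjusted p = 0.000591). ATRIP, the partner of ATR, was not tested: it had 2, 0 and 1 reads in the shKRT15 libraries and 4, 2 and 0 in the shNC libraries. Its span overlaps the read-through gene ATRIP-TREX1, which was at 0.0721 CPM in shKRT15 and 0.0552 CPM in shNC, so how reads of the locus were assigned is uncertain.

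Read ratios of 9 pairs of partners, chosen after single values had been seen, are given as a description. In 5 of the 9 the ratios did not overlap between the groups, a share near the 54.0% of single genes without overlap. Higher in shKRT15 were RAD54L over RAD54B, EME1 over MUS81, TIMELESS over TIPIN (log2 difference 0.71 ± 0.11) and CHEK2 over CHEK1 (0.53 ± 0.11). NBN over RAD50 was lower (−0.20 ± 0.11). Its groups were barely apart, at 2.704, 2.175 and 2.69 in shKRT15 and 2.723, 2.956 and 2.951 in shNC. Each of the 5 had an exact permutation p of 0.1 and an adjusted p over the 9 pairs of 0.18, so none passed the threshold. For BRCA1 over BARD1 the difference was 0.11 ± 0.10, for FANCD2 over FANCI 0.06 ± 0.18, for RMI2 over RMI1 0.19 ± 0.13 and for BRCA2 over PALB2 0.27 ± 0.19, with overlap in each (SE, n = 3 each).

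Levels of different members can be set side by side only per length, here as CPM per kilobase of the principal GENCODE 29 transcript. UBE2T was the most abundant on this scale in shKRT15, at 49.9 in shKRT15 and 40.7 in shNC. NBN came next at 36.3 in shKRT15 and was the first in shNC, at 45.55. They were followed in shKRT15 by CHEK2 (21.8 in shKRT15, 15.1 in shNC), FANCI (18.6 in shKRT15, 8.97 in shNC) and RAD51AP1 (16.97 in shKRT15, 8.11 in shNC). The tested members lowest in shKRT15 were FANCB (1.26 in shKRT15, 0.831 in shNC), FANCM (1.27 in shKRT15, 1.41 in shNC) and RAD51D (1.53 in shKRT15, 0.868 in shNC), for which the principal transcript is 9988 bases long.

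The members' median lay below that of the cell-cycle markers. All 20 S-phase replication markers rose, at log2 fold changes of 0.88 to 1.93 with a median of 1.36, and the helicase gene MCM4 (1.504 ± 0.07) and the thymidylate synthase gene TYMS (1.42 ± 0.07) had the smallest p-values. All 20 G2-M markers rose, at 0.47 to 1.86 with a median of 1.10, and KIF20A (1.86 ± 0.08) and PRC1 (1.33 ± 0.07) had the smallest p-values. Only XRCC3 exceeded the S-phase median, and 10 members exceeded its lowest gene, while 22 exceeded the lowest G2-M gene. The summed level of the S-phase markers was 1679 to 1803 CPM in shKRT15 and 666.9 to 690.6 CPM in shNC. The share of cycling cells was not measured, and its part in the members' rise was not tested. In bulk RNA more cells of a phase and more RNA per cell cannot be told apart.

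**Figure D3:**
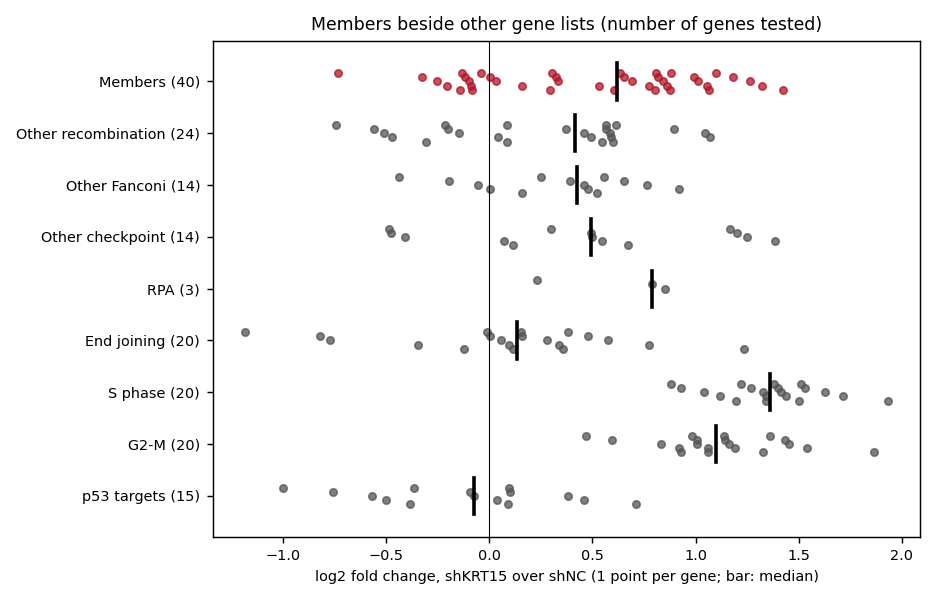
Log2 fold change, shKRT15 over shNC, of the tested members (red) and of 8 other gene lists (grey), with 1 point per gene and the median as a bar. The members' median of 0.62 lies below those of the S-phase (1.36) and G2-M (1.10) markers and above those of end joining (0.13) and p53 targets (−0.07).

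Genes of the same pathways outside the 41 moved in both directions, as did all genes tested (22.1% called higher, 23.0% lower). Of 24 further recombination genes, 12 rose and 4 fell, at a median of 0.42. C1orf112, now named FIRRM, rose by 1.05 ± 0.10. MRE11, the MRN nuclease, was at 25.1 CPM in shKRT15 and 23.6 CPM in shNC (0.09 ± 0.11, adjusted p = 0.551), and rose after GC-length adjustment (0.27, adjusted p = 0.0141). The 4 that fell were RAD52 (−0.75 ± 0.09), which anneals single strands, SWI5 (−0.51 ± 0.10), the helicase WRN (−0.47 ± 0.10, and −0.29 after GC-length adjustment) and ABRAXAS1 (−0.31 ± 0.09). The call of ABRAXAS1 did not hold after GC-length adjustment (adjusted p = 0.302) and without shKRT15 replicate 1 (0.0888) or shNC replicate 2 (0.0590). RPA1 (0.85 ± 0.07) and RPA3 (0.79 ± 0.10), which coat single-stranded DNA, rose with RPA2, so all 3 RPA genes were higher.

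Of 14 further Fanconi genes, 7 rose and 1 fell (2 without shNC replicate 3), at a median of 0.42. The ubiquitin ligase RFWD3 (0.77 ± 0.08) and the nuclease scaffold SLX4 (0.92 ± 0.13) led the rises. BOD1L1 fell (−0.44 ± 0.14, adjusted p = 0.0195), a call lost without shKRT15 replicate 1 (adjusted p = 0.0838), shKRT15 replicate 3 (0.0921) or shNC replicate 1 (0.0892) and with total-count scaling (0.0593). Of 14 further checkpoint genes, 9 rose and 3 fell, at a median of 0.49. The CDK-activating phosphatase CDC25B (1.39 ± 0.08) and the damage mediator MDC1 (1.17 ± 0.10) had the smallest p-values. The 3 that fell were the clamp subunit HUS1 (−0.48 ± 0.12), the clamp loader RAD17 (−0.48 ± 0.10, and −0.29 after GC-length adjustment) and the ATR activator ETAA1 (−0.41 ± 0.11), whose call was lost after GC-length adjustment (adjusted p = 0.278). Genes of the same roles, named here after their values were seen, went otherwise: the clamp subunit RAD9A (0.67 ± 0.17), the ATR activator TOPBP1 (0.30 ± 0.09) and RHNO1 (0.50 ± 0.09) rose, and the clamp subunit RAD1 was not called (0.07 ± 0.09).

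Of 20 end-joining genes, which compete with recombination for breaks, 8 rose, 3 fell and 9 did not pass, at a median of 0.13. PARP1 was at 341.3 CPM in shKRT15 and 144.8 CPM in shNC (1.24 ± 0.07, adjusted p = 1.85e-10), and the Ku subunit XRCC6 rose by 0.57 ± 0.07. Without shNC replicate 2, 5 of these genes were called higher. The ligase LIG4 (−0.82 ± 0.11, and −0.54 after GC-length adjustment), the shieldin subunit SHLD1 (−1.19 ± 0.27) and the ligase RNF168 (−0.77 ± 0.10), which marks broken chromatin, fell. After GC-length adjustment 5 were called lower. Of 15 p53 targets, which damage signalling induces, 3 rose (FDXR by 0.71, PPM1D by 0.46 and XPC by 0.38, the last at 0.23 after GC-length adjustment), 6 fell and 6 did not pass, with SESN2 (−0.76 ± 0.07) and RRM2B (−1.002 ± 0.09) leading the falls.

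Neighbours that start head to head with a member, within 1000 bases on the opposite strand, were set beside it. The distance is to any annotated start of the member, which need not be the start near a stretch printed above. FANCI, RMI2, RAD54B and NBN had no promoter window, so no neighbour was sought for them. Of 17 such neighbours in the count table, 11 were tested, beside 10 members. Of the 7 that adjoin a member called higher, HNRNPK beside RMI1 rose (0.31 ± 0.07) and C12orf4 beside RAD51AP1 fell (−0.30 ± 0.10). The remaining 5 were not called, where 45.0% of all genes tested were called in either direction. C12orf4 lost its call in several settings, at −0.09 after GC-length adjustment, with total-count scaling (adjusted p = 0.0883), and without shKRT15 replicate 3 (adjusted p = 0.126), shNC replicate 1 (0.0858) or shNC replicate 2 (0.0529). The 5 were NBR2 (−0.01 ± 0.26) and NBR1 (0.09 ± 0.07) beside BRCA1, ZFYVE21 beside XRCC3 (0.19 ± 0.11), MRPL27 beside EME1 (−0.20 ± 0.09) and HSCB beside CHEK2 (−0.00 ± 0.13). ZFYVE21 was called higher without shNC replicate 3 (0.29), and MRPL27 lower after GC-length adjustment (−0.23). Of the neighbours of members that were not called, NPAT, which shares the promoter region of ATM, was at 22.5 CPM in shKRT15 and 22.8 CPM in shNC (−0.02 ± 0.11), and after GC-length adjustment it was at 0.21 with an adjusted p of 0.04998. MOSPD2 beside FANCB (−0.61 ± 0.10, and −0.32 after GC-length adjustment) and MAP2K1 beside TIPIN (−0.31 ± 0.08) fell, and DCTN5 beside PALB2 rose (0.21 ± 0.07). The call of DCTN5 was lost without shKRT15 replicate 1 (adjusted p = 0.0739) or 3 (0.130) or shNC replicate 1 (0.0836) or 2 (0.0539). ZAR1L, SNHG31, IGBP1P2, LOC101927571, CRTC3-AS1 and LOC118567325 had too few reads to be tested.

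Some members share their span with another expressed gene, and without a stated strand setting reads of the 2 cannot be separated. For members called higher, the overlapping genes LRRC41 (RAD54L), POLG (FANCI), AOPEP (FANCC), LRRC59 (EME1) and KLC1 (XRCC3) were not called, at −0.15 to 0.13. ZNF276 (FANCA) was called lower (−0.42). HNRNPK (RMI1), at 811.1 CPM in shKRT15 and 652.6 CPM in shNC, was called higher (0.31). At low levels, NBR2 and LOC101929767 (BRCA1), LOC107987102 (FANCC) and LOC105371082 (RMI2) were not called, at −0.32 to 0.81. CHEK2, FANCD2 and BRCA1 have known pseudogene copies, to which reads may have been lost or from which they may have been gained.

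The members' fold changes were also set against the composition of their transcripts. Across the 40 tested members the Spearman correlation of log2 fold change with GC content was 0.35, and with transcript length −0.06. Over 13121 tested genes with a value it was 0.25 for GC content and 0.00 for length. Genes of 1 sample set are not independent, and these are descriptions. The median GC content was 43.7% in the 23 members called higher and 40.02% in the other 17. After GC-length adjustment 27 members were called higher and 2 lower, the 2 being RAD54B and MUS81. Of the 13121 genes tested in that setting, 3351 were called higher and 3408 lower. The SE of ATM was then 0.08, against 0.14 before.

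**Figure D4:**
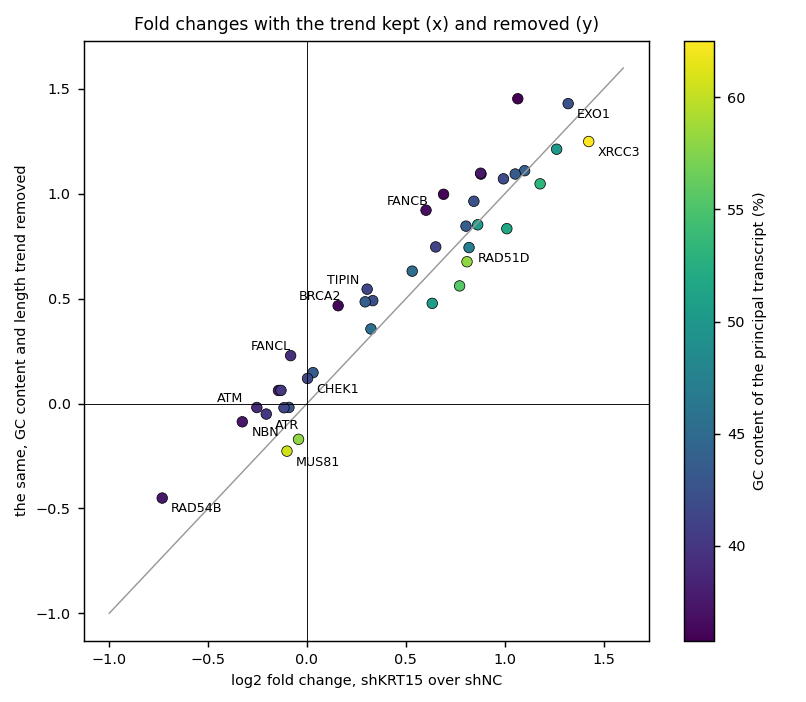
Log2 fold change of the 40 tested members, shKRT15 over shNC, as counted (horizontal) and after GC-length adjustment, the trend removed (vertical), coloured by the GC content of the principal transcript in percent; the grey line marks equal values. NBN is at −0.33 as counted and −0.09 adjusted, BRCA2 at 0.16 and 0.47, and RAD54B stays below 0 at −0.45.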

How the data were processed

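The deposited table holds raw read counts per gene as the authors made them, 1 whole number per gene and library, without normalization. Per the labels' protocols, TRIzol RNA was purified to mRNA, fragmented and sequenced on an Illumina platform. Per the submitters' processing notes the build was GRCh38, while the sources used here give no aligner, counter, annotation or strand setting. Libraries were grouped by title. No 2 libraries agreed within sampling noise (chi-square per degree of freedom 6.16 to 31.0 within groups), so all 6 entered. The labels do not say whether replicates were separate transfections, and p-values measure only the spread between these cultures.

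Counts were tested with edgeR 4.0.16 in R 4.3.3 (quasi-likelihood, robust, TMM factors, group as the only term). The filter filterByExpr (minimum count 10, minimum total 15) left 14356 of 22681 genes, and p-values were adjusted by Benjamini-Hochberg over all of them. A gene is called higher or lower, or said to have risen or fallen, at an adjusted p under 0.05. SE is that of the log2 fold change. The fit was tested on simulated data. GC content and length of the principal transcript came from GENCODE 29 (91.4% of tested genes, all 41 members).

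All 41 members are described. Of the other lists, the 2 genes with the smallest p-values and those called against the list are named. MRE11 and head-to-head neighbours are named whatever their values, and 1 further gene is not reported here. The members and lists were chosen with earlier results of these data known. Alternatives were other scalings, DESeq2 1.42.0, voom of limma 3.58.1, other filters, a replicate block, trend removal and leaving out each library. A test restricted to protein-coding genes, the partner ratios and the alternatives for genes outside the members were added after seeing the data.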

Additional observations from a re-analysis of the deposited data

How the results depend on the processing

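Under 15 alternative settings, 22 of the 40 tested members kept both direction and call, and 18 changed one of them in at least 1 setting. The count of members called higher was 21 to 27 and that of members called lower 2 to 4. Over all genes tested, these settings called 2547 to 3740 higher and 2647 to 3452 lower. Leaving out 1 library at a time gave 21 to 25 higher, 2 to 4 lower (4 without shNC replicate 3) and a median of 0.53 (without shKRT15 replicate 2) to 0.63. Groups did not overlap in 26 members with size factors and 28 with total-count scaling. The share of all genes without overlap was 54.0% in the main setting and is not given for these settings, so the counts have no background here. Total-count scaling moved the median of all genes by 0.06 and gave 3740 genes called higher and 2711 lower.

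Of members that were not called, FANCB passed with voom (adjusted p = 0.0430), no filter (0.0388), the block (0.0330) and GC-length adjustment (0.00828), FANCF with total-count scaling (0.0478), the block (0.0474) and GC-length adjustment (0.0356), and TIPIN with total-count scaling (0.0305). ATM passed as lower with no filter (adjusted p = 0.0192) and the block (0.0133). Members that changed sign were called in neither setting. After adjustment FANCL stood at 0.23, FANCM at 0.0623 and RBBP8 at 0.0628, and with total-count scaling FANCE stood at 0.0155. Leaving out 1 library put CHEK1 at −0.0506 to 0.0668, PALB2 at −0.2201 to 0.0038, RAD51B at −0.0407 to 0.1166, FANCE at −0.1051 to 0.0168 and BRCA2 at −0.0076 to 0.2877.

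Outside the members, NBR2 was at 0.0510 (total-count scaling), 0.0177 (voom) and 0.0094 (block), HSCB at 0.0561 (total-count scaling), 0.0004 (no filter), 0.0033 (at least 1 CPM in 3 libraries) and 0.0146 (adjustment), and NPAT at 0.0386 (total-count scaling) and 0.21 (adjustment). Leaving out 1 library put MRE11 at −0.0115 to 0.1789, NBR2 at −0.2100 to 0.1753, NPAT at −0.1239 to 0.0469 and HSCB at −0.1173 to 0.1234. The cause of these changes was not tested.

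Same-numbered libraries deviated from their group means with correlations of 0.02, −0.01 and 0.05, so the numbers were not taken to pair them. With the replicate number as a block, 25 members were called higher and 3 lower, at a median of 0.63. Of all 14356 genes tested, the block called 3305 higher and 3428 lower. Not every library correlated best with its own number. With 3 libraries a group, no exact permutation test can go below p = 0.1. ATRIP could not be assessed at its depth.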
